A study of Homo sapiens with 12 samples.

Results

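The ATRA response of control NB4 cells was read from 6 of the 12 Affymetrix ST arrays of a series on the long noncoding RNA HOTAIRM1. NB4 is an established human acute promyelocytic leukemia line. Controls were of 2 kinds, unmodified wild type NB4 with a single array per state and NB4 with a scrambled shRNA with 2 arrays per state. They were either untreated or kept for 96 hours in 0.5 uM all-trans retinoic acid (ATRA). The other 6 arrays were of cells with 1 of 2 shRNAs against HOTAIRM1, in the same 2 states. Of these, shRNA1 had 2 arrays per state and shRNA2 a single array per state. These 6 arrays entered the model only to share its estimate of the spread and for 1 comparison of responses. The scrambled cells were made with a lentiviral vector, sorted for its GFP marker and derived from single cells, which the wild type cells were not. The design text calls their duplicates biological without saying whether they were separate clones, so p values cover only the spread among these arrays, and that spread may be technical in part. All 18404 genes that had a probe set annotated to a single gene were compared, each by its log2 value, and no gene was left out for a low value.

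Retinoic acid acts through receptors (RARA, RARB, RARG) that bind DNA as pairs with RXR partners and switch from repressing to activating their target genes when the ligand binds. In acute promyelocytic leukemia a fusion of PML with RARA holds myeloid precursors at the promyelocyte stage, and pharmacological ATRA degrades the fusion and lets the cells mature toward neutrophils. Maturing neutrophils leave the cell cycle, shrink their biosynthetic machinery and acquire receptors for microbes, antibodies and chemoattractants.

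Among markers of the labelled cell type, the primary granule genes MPO and PRTN3 lay between 12.93 and 13.77 (log2) in every untreated control array. The other measured promyelocyte markers were lower there, with MYB at 11.84 to 11.90, AZU1 at 10.39 to 10.82 and ELANE at 9.01 to 9.07. CTSG lay at 8.03 to 9.98, and KIT at 5.39 to 5.49, below the medians of these arrays (7.73 to 7.76). The 7 measured promyelocyte markers averaged between 10.19 and 10.63 in the untreated arrays and between 9.44 and 10.18 after ATRA, and only MYB among them was called lower. The 8 measured granulocyte markers averaged between 8.75 and 9.38 before and between 9.78 and 10.15 after ATRA, with 6 called higher. The 5 measured lymphoid markers averaged between 7.10 and 7.64 and then between 6.92 and 7.05, with none called. Among them CD79A lay at 10.91 in the untreated array of scrambled replicate 2, beside 8.22 and 8.28 in the other untreated arrays. CD3D lay at 8.61 in the untreated array of scrambled replicate 1, beside 7.38 and 7.84 in the others. The 5 erythroid and megakaryocyte markers averaged between 7.14 and 7.38 and then between 7.34 and 7.39, with ALAS2 and GP9 higher. Both calls were lost without both arrays of scrambled replicate 2 (limma adjusted p of 0.0649 and 0.06). That of GP9 was also lost without both wild type arrays (0.124). Of 7 monocyte and macrophage markers 4 were called higher, their mean moving from between 7.03 and 7.12 to between 7.47 and 7.52. Of 6 stromal and epithelial markers 4 were called higher by at most 0.35 and EPCAM lower, with means of 8.18 to 8.29 and then 8.29 to 8.42. These 4 calls were unstable: 0 genes of the list were higher without the untreated wild type array or the ATRA array of scrambled replicate 2, and 1 or 2 without any other single array. On an array no marker reads 0, and the part of other cell types in these values was not tested.

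The promoters of 5 responding genes are shown as examples of motifs that were searched, each found in only some genes of its group. They were taken from RefSeq on GRCh38.p14, 5′ to 3′ on the gene's strand, and chosen after their matches were known. RARB is shown for a pair of retinoid receptor sites (GGTTCA and AGTTCA, 5 bases apart), IFIT1 and OAS3 for the interferon element (a repeat of GAAA with 2 bases between), and MCM6 and DUT for the E2F motifs TTTCCCGC, TTTGGCGC and TTTCGCGC. Capitals mark the matches of the motif a gene is shown for, on either strand, so that the interferon element reads as a repeat of TTTC where it lies on the other strand. OAS3 also holds a reverse match of TTTCCCGC that begins at position -16 and runs into the second marked element, and is not capitalised. In MCM6, TTTGGCGC overlaps a reverse match of TTTCGCGC at both sites.
RARB: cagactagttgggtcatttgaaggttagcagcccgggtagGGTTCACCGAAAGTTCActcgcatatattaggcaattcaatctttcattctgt
IFIT1: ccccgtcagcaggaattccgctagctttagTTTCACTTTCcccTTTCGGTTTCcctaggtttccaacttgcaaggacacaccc
OAS3: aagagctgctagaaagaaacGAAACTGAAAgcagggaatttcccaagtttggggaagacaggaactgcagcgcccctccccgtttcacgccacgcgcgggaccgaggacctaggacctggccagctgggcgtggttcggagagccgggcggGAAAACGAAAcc
MCM6: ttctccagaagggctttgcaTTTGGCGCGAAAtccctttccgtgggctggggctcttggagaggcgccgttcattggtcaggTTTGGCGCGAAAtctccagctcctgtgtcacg
DUT: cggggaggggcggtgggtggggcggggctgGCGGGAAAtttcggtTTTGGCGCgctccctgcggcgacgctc
The RARB stretch is chr3:25428170-25428262 on the plus strand and its match begins 53 bases before the transcript start. The IFIT1 stretch is chr10:89392477-89392559 and the OAS3 stretch is chr12:112938311-112938473, both on the plus strand. The MCM6 stretch is chr2:135876502-135876615 on the minus strand, and the DUT stretch is chr15:48332125-48332196 on the plus strand. RARB and DUT have 4 starts each in the table, of which 1 is shown.

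The motifs were counted over the table's 35116 promoters of 300 bases (250 before and 50 after each start, several for some genes), on both strands. Any of 4 retinoid pairs was found (a repeat of AGGTCA, a repeat of AGTTCA, or GGTTCA before AGTTCA, each with 5 bases between, and a repeat of AGGTCA with 2 bases between) in 13 promoters (0.037%). Of the retinoid list promoters 1 of 28 (metabolism and targets) and 1 of 17 (receptors and corepressors) held one. The first is of CYP26A1, which was not called, and the second of RARB, which was called higher. The interferon element was found in 3.57% of all promoters, in 3.11% of the 20100 promoters of genes tested, in 4.32% of those of genes called higher with ATRA and in 2.43% of those called lower. It stood in 9 of 13 promoters of the apolipoprotein L, MX, OAS, IFIT and IFITM families and in 10 of 18 of the immunoproteasome and MHC class I loading list. In that loading list it was found both in genes called higher (TAP1, TAP2, TAPBP, PSME2 and B2M) and in genes not called (ERAP1, ERAP2, PSMB8, PSME1 and PSMB10). Any of the 3 E2F motifs was found in 2.74% of all promoters, in 3.47% of those of genes tested, in 6.5% of those of genes called lower and in 2.34% of those called higher. It stood in 9 of 20 promoters of the MCM helicase and origin licensing list and in 4 of 19 of the deoxynucleotide supply list. In other lists that fell it was rarer. It stood in 1 of 32 promoters of RNA polymerase I and III subunits, 2 of 48 of nuclear pore and transport genes and 5 of 82 of mitochondrial ribosomal proteins. The E-box CACGTG, bound by MYC among others, was found in 7.26% of all promoters and in 8.32% of those of genes tested. Promoters of lower genes held it in 11.7% and those of higher genes in 6.90%. It stood in 7 of 26 promoters of the purine and one-carbon synthesis list and in 5 of 20 of the MCM and licensing list. Among nuclear pore and transport genes it stood in 8 of 48, and among mitochondrial ribosomal proteins in 9 of 82. TTTGAA, the core of the CHR element of cell cycle promoters, was found in 15.2% of all promoters, 12.3% of those of genes tested, 12.4% of those of higher and 11.1% of those of lower genes. These matches describe letters in the windows and were not tested.

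ATRA moved a large part of the transcriptome of control cells, with few very large falls and a longer tail of rises. At the adjusted threshold of 0.05, limma called 2800 genes higher (15.2% of those tested) and 3844 lower (20.9%), while 8648 genes had an unadjusted p under 0.05. The balance of the tails was opposite to that of the counts. Among the calls, 115 rises but 10 falls reached 2 on the log2 scale (4-fold), 33 rises and 0 falls reached 3 (8-fold), and 6 rises and 0 falls reached 4 (16-fold). All 3 ATRA arrays lay above all 3 untreated arrays in 4639 genes (25.2%) and below them in 4308 (23.4%), and 2655 higher and 3659 lower calls had such separated groups. The count of higher genes was 1549 without the untreated wild type array, 1783 without the wild type ATRA array and 983 without both, with 2477 lower.

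**Figure D1:**
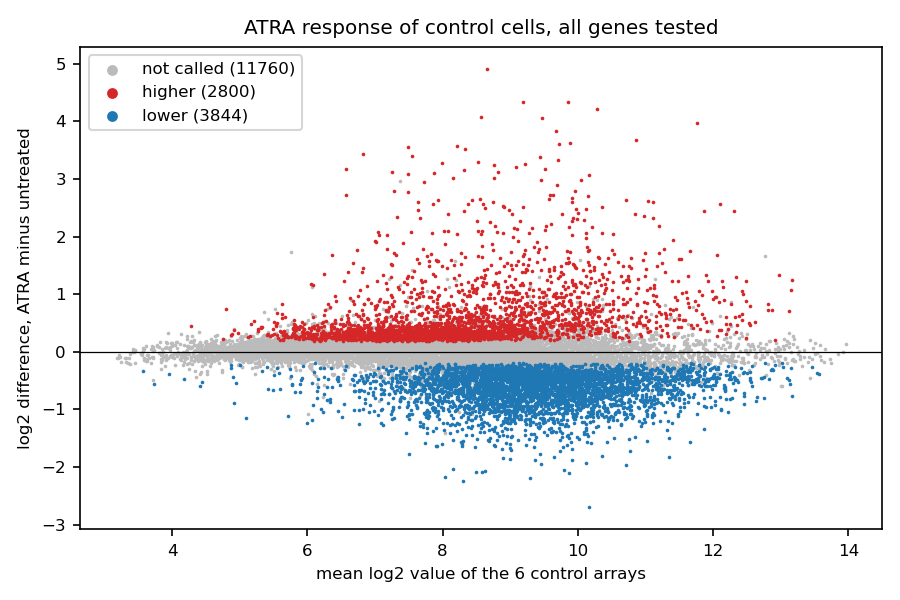
Log2 difference (ATRA minus untreated, control cells) of the 18404 genes against the mean log2 value of the 6 control arrays, coloured by limma's call (2800 higher in red, 3844 lower in blue, others grey). The cloud of falls is dense but stays above -3, while the rises are sparser and reach 4.91.

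The 20 largest separated rises were led by surface channels, receptors and secreted proteins of myeloid cells. Where 3 values are given for a state, they stand in the order scrambled replicate 1, scrambled replicate 2 and wild type, on the log2 scale. AQP9, a channel for water, glycerol and other small solutes, lay at 6.30, 6.35 and 5.95 untreated and at 11.50, 11.23 and 10.59 after ATRA. It rose 30.1-fold (log2 difference 4.91, SE 0.40, limma adjusted p = 3.7e-05), and the lowest treated array stood more than 4 units above the highest untreated one. IGSF6, an immunoglobulin family receptor of myeloid cells, lay at 7.02, 6.95 and 7.12 and then at 11.83, 10.67 and 11.58. It rose by 4.33 (SE 0.46). ADGRE3, an adhesion receptor of myeloid cells, rose by the same 4.33 (SE 0.29) and reached 12.16, 11.81 and 12.09 from 7.49, 8.57 and 7.0. LRRK2, a kinase of myeloid cells and neurons, went from 6.24, 6.79 and 6.56 to 10.81, 10.56 and 10.46, a 16.9-fold rise with an SE of 0.26 on the log2 scale. SPP1, the secreted phosphoprotein osteopontin, went from 9.07, 9.07 and 8.91 to 12.54, 12.92 and 12.62. In these genes the 2 states were far apart in every line.

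Others of the 20 included surface receptors and inflammatory genes. DCSTAMP, a membrane protein needed for the fusion of osteoclasts and macrophages, rose by 3.40 (SE 0.30) and GPR34, a lysophospholipid receptor, by 3.56 (SE 0.25). GPR82, an orphan receptor, lay at 4.83, 5.48 and 5.02 and after ATRA at 9.32, 9.05 and 7.27. Its rise of 3.44 was 4.08 without the wild type ATRA array, the lowest of the treated arrays. IL1A, an inflammatory cytokine, went from 6.34, 6.49 and 6.24 to 9.29, 8.85 and 10.76, and its rise of 3.28 was 2.66 without both wild type arrays. P2RY13, a receptor for ADP, lay at 6.58, 9.75 and 6.93 before and at 11.36, 11.30 and 10.74 after ATRA. Its rise of 3.38 was 4.38 without the untreated array of scrambled replicate 2 and 2.79 without that of scrambled replicate 1. JAML, an adhesion molecule of neutrophils, rose by 4.06, and by 4.68 without both arrays of scrambled replicate 2. THBS1, SAMD9L and SLFN5 were also among the 20, at 4.21, 3.61 and 3.29.

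The 20 largest separated falls were of other kinds of genes. E2F5, a cell cycle transcription factor, lay at 10.16, 8.42 and 9.68 untreated and at 6.95, 6.69 and 7.89 after ATRA, 4.73-fold lower (SE 0.42 on the log2 scale, limma adjusted p = 0.00188). ASS1, the argininosuccinate synthase of arginine production, was tighter, at 11.23, 11.05 and 10.97 and then 8.93, 9.41 and 9.14. It fell by 1.92 (SE 0.16, adjusted p = 3.7e-05), 3.79-fold. MTSS2, a membrane-bending protein, fell by 2.19 (SE 0.23) and IFT57, a subunit of the ciliary transport complex, fell by 2.17 (SE 0.23). CHRNA5, a nicotinic receptor subunit, fell by 2.08, EBF3, a transcription factor, fell by 2.07, and ELOVL3, a fatty acid elongase, fell by 2.04. GBE1, the glycogen branching enzyme, lay at 10.03, 10.67 and 10.57 and then at 8.70, 8.98 and 7.75. MRTO4, a ribosome assembly factor, fell by 1.84 and HSPA4L, a chaperone, fell by 1.87. ANPEP, the surface aminopeptidase CD13 of myeloid cells, went from 12.67, 11.92 and 12.20 to 10.83, 9.76 and 10.71 and fell by 1.83 (SE 0.28). All 20 had separated groups by the rule that chose them.

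3 of these falls rested partly on single lines. RNASE2CP, a pseudogene whose probes may read its family, fell by 2.7, with values of -1.98 without the wild type ATRA array and -1.66 without both wild type arrays. SPARC, a secreted matrix protein, lay at 8.73, 10.53 and 10.52 untreated and at 8.43, 8.12 and 7.68 after ATRA. Its fall of 1.85 became 2.45 without the untreated array of scrambled replicate 1, and its call was lost without both wild type arrays (-1.36, adjusted p = 0.0676). ROPN1L fell by 1.83, and its call was lost without both wild type arrays (adjusted p = 0.0988) and without both arrays of scrambled replicate 2 (adjusted p = 0.0695).

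**Figure D2:**
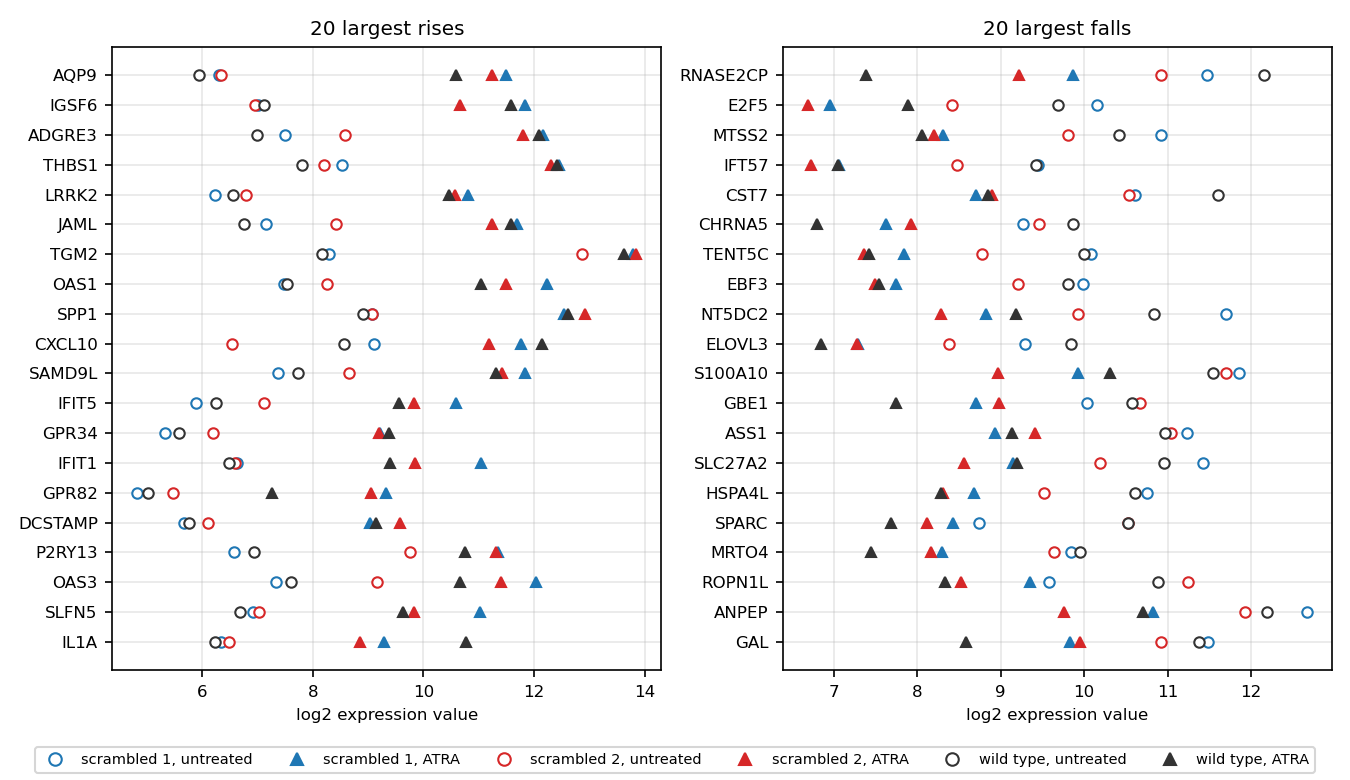
Log2 expression value in each of the 6 control arrays for the 20 strongest rises and 20 strongest falls among calls with separated groups. Open circles are untreated and filled triangles ATRA arrays, coloured by line. For several genes the untreated array of scrambled replicate 2 (open red circle) stands nearer the ATRA arrays than the other untreated arrays do, as in TGM2 at 12.86, while in AQP9 (6.35) and SPP1 (9.07) it does not.

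Among genes of retinoid receptors and corepressors calls were made in both directions, and most members, RARG among them, were not called. RARB, a receptor that is also a classical direct target, lay at 6.33, 6.82 and 6.07 and then at 8.76, 8.32 and 9.53. It rose 5.49-fold (log2 difference 2.46, SE 0.33, limma adjusted p = 0.000252), and its promoter holds the pair of sites shown above. RXRA, the common partner, lay at 9.80, 9.19 and 9.64 and then at 8.53, 8.62 and 8.55, and fell by 0.98 (SE 0.17, adjusted p = 0.00128). HDAC3, the deacetylase of the corepressor complex, fell by 0.61 from 10.97, 10.97 and 10.99 (SE 0.08), and the coactivator NCOA2 rose by 0.55, a call lost without the ATRA array of scrambled replicate 1 (adjusted p = 0.0596), the untreated array of scrambled replicate 1 (0.0501) or the untreated wild type array (0.0504). PML, the other partner in the fusion, differed by 0.03 (SE 0.17, adjusted p = 0.919). Of the 10 measured genes of receptors and corepressors 2 were higher (20%, beside 15.2% of all genes) and 2 lower (20%, beside 20.9%). RARA was not among the genes with a probe set of their own in the annotation used.

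In the list of retinoid metabolism and targets, with 21 measured genes, 10 rose and 1 fell, with a median log2 difference of 0.43 against 0.05 over all genes. Without both wild type arrays 3 were higher. UBA7, the activating enzyme of ISG15 conjugation and a known ATRA target in these leukemias, lay at 8.56, 9.77 and 8.94 and then at 10.95, 10.36 and 10.56, a rise of 1.54 (SE 0.30). TGM2, a transglutaminase, lay at 8.30, 12.86 and 8.16 and then at 13.78, 13.85 and 13.62. Its untreated values span most of the response, and its rise of 3.98 was 5.52 without the untreated array of scrambled replicate 2, 3.24 without that of scrambled replicate 1 and 3.17 without the untreated wild type array. Without both wild type arrays its call was lost (adjusted p = 0.0563). ALDH1A2, which makes retinoic acid, rose by 0.42 (SE 0.08), and RDH10, which feeds that step, fell by 1.34 (SE 0.15).

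Transcription factors of the myeloid lineage had calls in both directions, at shares near or below those of all genes. CEBPA, which drives early granulocytic commitment, lay at 9.64, 9.69 and 9.54 and then at 8.80, 8.88 and 8.66, a fall of 0.84 (SE 0.11, limma adjusted p = 0.000223). GFI1, a repressor of the granulocyte lineage, fell by 1.02 (SE 0.15), and MYB, a factor of proliferating progenitors, fell by 0.92 (SE 0.20) and by 0.61 on leaving out both wild type arrays. BCL6, a repressor, rose by 1.70 (SE 0.28) from 6.77, 7.69 and 6.49 to 8.73, 8.26 and 9.05. Of the 26 measured members of the C/EBP and lineage list 4 were higher (15.4%, beside 15.2% of all genes) and 4 lower (15.4%, beside 20.9%), with a median of 0.07. The higher count was 8 without the untreated array of scrambled replicate 2, 7 without both arrays of that line, 2 without either wild type array and 1 without both.

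The factors of late granulocytic maturation depended on that untreated array. CEBPE lay at 8.35, 10.02 and 8.65 untreated and at 9.92, 9.83 and 9.76 after ATRA, so the scrambled replicate 2 value stood above all treated ones. Its difference was 0.83 (SE 0.32, limma adjusted p = 0.0652), and 1.33 (adjusted p = 9.32e-05) without that array. CEBPB lay at 9.14, 11.12 and 9.46 and then at 10.32, 10.44 and 10.85, a difference of 0.63 (adjusted p = 0.24) that was 1.24 (adjusted p = 0.00134) without it. SPI1, the PU.1 factor of myeloid cells, was called higher at 0.56 (adjusted p = 0.0159) with overlapping groups. That call was lost without the wild type ATRA array (adjusted p = 0.0567), the untreated wild type array (0.0637), the untreated array of scrambled replicate 1 (0.0555) or both wild type arrays (0.153). CD38, a surface enzyme and known ATRA target, lay at 10.86, 12.49 and 11.83 and then at 12.38, 12.24 and 12.07, a difference of 0.50 (adjusted p = 0.198) that was 0.89 (adjusted p = 0.00967) without that array.

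Immediate early and KLF factors, which respond to signals at the cell surface, had rises only among their calls after 96 hours. In their list 15 of 29 measured genes rose, 0 fell and the median was 0.30, and 8 rose without both wild type arrays. EGR1 lay at 9.0, 9.29 and 8.87 and then at 10.24, 10.44 and 11.13, a rise of 1.55 (SE 0.22). FOS rose by 1.04 (SE 0.10), EGR3 by 1.23 (SE 0.19) and JUN by 1.34 (SE 0.24), with the wild type ATRA array the highest in each.

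MYC, which drives growth and proliferation, and its antagonist MXD1 went opposite ways. MYC lay at 11.88, 11.14 and 11.70 and then at 10.58, 10.49 and 9.79, and fell by 1.29 (2.44-fold, SE 0.23, limma adjusted p = 0.00122). MXD1, which competes for the partner MAX, lay at 9.03, 9.33 and 9.30 and then at 10.80, 9.96 and 11.32, and rose by 1.47 (SE 0.32). Among the 13 genes of this network 4 were higher and 3 lower (30.8% and 23.1%, beside 15.2% and 20.9% of all genes). Smaller calls ended on leaving out lines: MYCL (0.31) and MGA (-0.42) without both wild type arrays, at adjusted p of 0.0744 and 0.123, and MYCL also without both arrays of scrambled replicate 2 (0.0897). The higher count was 2 without either array of scrambled replicate 1, either wild type array or the ATRA array of scrambled replicate 2, and also with array medians centred. Without both wild type arrays 1 was higher and 1 lower.

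Genes that license DNA for replication fell nearly as a whole. Of the 18 measured MCM, ORC and licensing genes 17 fell and 0 rose, with a median of -1.01, and 9 fell by at least 1. MCM6, a subunit of the replicative helicase, lay at 10.68, 10.80 and 10.84 and then at 9.64, 9.34 and 8.80, a fall of 1.51 (SE 0.16, limma adjusted p = 9.58e-05). MCM10, which helps start the helicase, lay at 9.61, 9.26 and 9.82 and then at 8.33, 8.02 and 7.94, a fall of 1.47 (SE 0.14). MCM2 lay at 10.93, 10.89 and 10.91 untreated and at 10.07, 9.75 and 9.62 after ATRA. ORC1 and ORC6, subunits of the origin recognition complex, fell by 1.17 (SE 0.12) and 0.94 (SE 0.07). ORC2, named here after its value was seen as the member without a call, differed by -0.25. The medians within the lines were -0.84 in scrambled replicate 1, -0.96 in scrambled replicate 2 and -1.15 in wild type cells.

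The factors and enzymes upstream of replication fell with them. Of 20 E2F, DP and pocket protein genes 15 fell and 1 rose, with a median of -0.58. E2F8 lay at 9.78, 9.88 and 9.82 and then at 8.91, 8.68 and 8.77, a fall of 1.04 (SE 0.11), and MYBL2, a partner in cell cycle transcription, fell by 1.10 (SE 0.13) from 11.53, 11.72 and 11.68. LIN9 fell by 0.96 and E2F3 fell by 0.78. Of 13 genes of deoxynucleotide supply 8 fell and 1 rose, with a median of -0.53. RRM1, the large subunit of ribonucleotide reductase, lay at 10.92, 10.94 and 11.04 and then at 10.02, 10.07 and 9.67, a fall of 1.05 (SE 0.11). TYMS, the thymidylate synthase, fell by 1.22, DUT, the dUTPase whose promoter is shown above, fell by 1.0 and DTYMK, a thymidylate kinase, fell by 0.89.

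In the chromatin lists between 43.8% and 48.5% of genes were called lower, beside 20.9% of all genes. Between 3.12% and 12.5% were called higher, beside 15.2% of all genes. UHRF1, which couples DNA methylation to replication, lay at 10.40, 10.48 and 10.39 and then at 9.44, 9.01 and 8.69, a fall of 1.38 (SE 0.14). HELLS fell by 1.11 and the maintenance methyltransferase DNMT1 fell by 0.50, while TET2, which oxidises methylcytosine, rose by 1.04 (SE 0.14) from 8.42, 8.78 and 8.46 to 9.67, 9.37 and 9.74. Of the 16 genes of this list 7 fell and 2 rose, with 4 lower without both wild type arrays. Of 33 polycomb and histone methylation genes 16 fell and 2 rose, with a median of -0.29. KDM1A, a histone demethylase studied as a partner target of ATRA, lay at 10.70, 10.19 and 10.64 and then at 9.49, 9.35 and 9.29, a fall of 1.14 (SE 0.12). EZH2 fell by 0.83 (SE 0.09), SUV39H1 fell by 0.83 (SE 0.10) and NSD2 fell by 0.80. Of 64 histone genes 30 were lower and 2 higher. That lower count was 19 without the untreated wild type array, 18 without the ATRA array of scrambled replicate 2 and 15 without both arrays of that line, and family members share sequence. H2BC12, a histone gene with a rise, went from 8.91, 9.34 and 8.75 to 10.15, 10.35 and 10.97.

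The machinery of growth fell, in most of its branches by less than 2-fold. Purine and one-carbon synthesis, which feeds nucleotides, had 16 of 22 genes lower and 1 higher, with a median of -0.94. PRPS2, which makes the ribose phosphate donor, lay at 10.83, 10.34 and 10.70 and then at 9.36, 9.24 and 8.78, a fall of 1.50 (SE 0.16), and GMPS fell by 0.84 (SE 0.08). PAICS fell by 1.13 and HPRT1, of the salvage route, fell by 0.97. Of 25 subunits and factors of RNA polymerases I and III 20 fell and 0 rose, with a median of -0.71. POLR1E lay at 9.87, 9.37 and 9.80 and then at 8.49, 8.40 and 8.14, a fall of 1.34 (SE 0.14).

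Import, export and folding genes followed. Of 42 nuclear pore and transport genes 40 fell, with a median of -0.66, and the other 2 were not called. IPO4, an importin for histones and ribosomal proteins, lay at 10.75, 10.25 and 10.73 and then at 9.36, 9.15 and 8.86, a 2.73-fold fall (SE 0.15 on the log2 scale). XPO4, NUP160 and NUP133 fell by 0.86, 1.07 and 0.90. Of 24 chaperone genes 20 fell and 0 rose, with a median of -0.77. TRAP1, the mitochondrial member of the HSP90 family, lay at 12.09, 11.40 and 11.90 and then at 10.51, 10.25 and 9.98, a fall of 1.55 (SE 0.16), and the chaperonin subunits CCT4 and CCT7 fell by 1.04 and 0.89. The chaperone median was -1.18 in wild type cells, -0.79 in scrambled replicate 1 and -0.36 in scrambled replicate 2. By contrast 20 of 23 genes of the unfolded protein response were not called. In this list 1 was higher and 2 lower (4.35% and 8.7%, beside 15.2% and 20.9% of all genes). However, 8 were lower without the untreated array of scrambled replicate 2, or without both arrays of that line. Its 3 calls (PDIA6 at -0.78, XBP1 at -0.87 and DDIT3 at 0.87) each ended without the untreated array of scrambled replicate 1 (adjusted p of 0.0777, 0.148 and 0.148), the untreated wild type array (0.1, 0.14 and 0.0975) or both wild type arrays (0.262, 0.141 and 0.244). PDIA6 and DDIT3 also lost theirs without the wild type ATRA array (0.105 and 0.177), XBP1 and DDIT3 without the ATRA array of scrambled replicate 1 (0.0799 and 0.0897), and XBP1 without that of scrambled replicate 2 (0.133). DDIT3 stood at 0.48 without the wild type ATRA array, 0.52 without both wild type arrays and 1.41 without both arrays of scrambled replicate 2, XBP1 at -0.58 without the untreated array of scrambled replicate 1, and PDIA6 at -0.43 without both wild type arrays.

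Mitochondrial and cytosolic translation did not move by the same amount. Of 73 mitochondrial ribosomal protein genes 68 fell and 0 rose, with a median of -0.65. MRPL46 lay at 11.20, 11.05 and 10.99 and then at 10.10, 10.06 and 9.91, a fall of 1.06 (SE 0.09), and MRPS2 fell by 1.26 (SE 0.12). Of 61 cytosolic ribosomal protein genes 15 fell and 0 rose, a share of 24.6% beside the background of 20.9%, with a median of -0.16. RPS24, at 10.65, 10.23 and 10.22 and then 9.24, 9.65 and 9.41, fell by 0.93. The difference between both lists was not tested. Of 49 translation initiation factors 31 fell and 2 rose. EIF1B, a paralog of a start codon selection factor, was one of the risers, going from 9.0, 9.63 and 9.23 to 10.88, 11.04 and 11.24, a rise of 1.76 (SE 0.15). Of 19 cytosolic aminoacyl-tRNA synthetases 11 fell and 1 rose, with 7 lower without the untreated wild type array. FARSB fell by 1.24 and KARS1 fell by 0.82. Of 34 DEAD-box helicases 21 fell and 2 rose, with DDX21, a nucleolar helicase, at -1.08 and DDX60, an antiviral helicase, at 2.95.

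**Figure D3:**
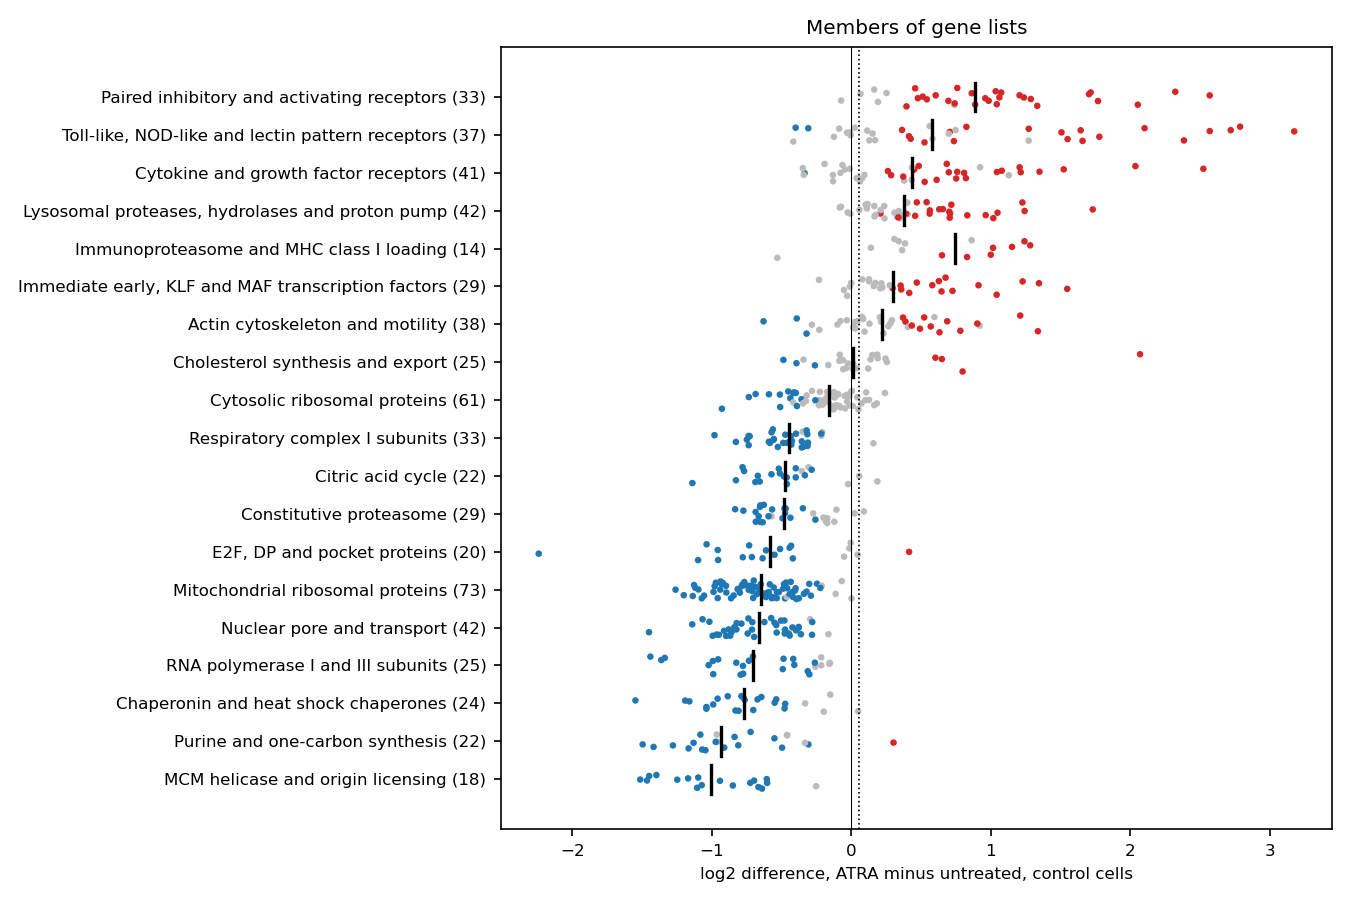
Log2 difference (ATRA minus untreated, control cells) of each measured member of 19 gene lists. Red points were called higher, blue lower and grey not called, black bars are list medians, the number of members is in brackets and the dotted line is the median of all genes (0.05). The lists run from paired receptors (median 0.89) to the MCM and licensing genes (-1.01).

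Energy metabolism was lower in part. Of 22 citric acid cycle genes 17 fell and 0 rose, with a median of -0.47. DLAT, a subunit of pyruvate dehydrogenase, lay at 10.77, 10.72 and 10.88 and then at 9.79, 9.89 and 9.27, a fall of 1.14 (SE 0.14), and DLST fell by 0.78 (SE 0.07). Of 33 subunits of respiratory complex I 29 fell, and of 40 subunits of complexes III to V 25 fell, with medians of -0.45 and -0.37. Without both wild type arrays these counts were 15 and 14. NDUFB9 fell by 0.83 (SE 0.09) and ATP5ME, a subunit of ATP synthase, fell by 0.71 (SE 0.10). Of 29 genes of glycolysis and the pentose phosphate pathway 8 fell and 5 rose (27.6% and 17.2%, beside 20.9% and 15.2% of all genes). These counts were 4 and 2 without both wild type arrays. The rising count was 3 without either wild type array or the ATRA array of scrambled replicate 1. The glucose transporter SLC2A1 lay at 11.24, 11.33 and 11.26 and then at 10.40, 10.25 and 9.66, a fall of 1.17 (SE 0.17), and HK3, the hexokinase of myeloid cells, rose by 0.98 (SE 0.18).

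Other metabolic lists were mixed. Of 32 solute channels and nutrient transporters 15 fell and 8 rose (46.9% and 25%, beside 20.9% and 15.2% of all genes). The zinc transporters SLC39A10 and SLC39A8 fell by 1.27 (SE 0.14) and 1.08 (SE 0.14), and SLC7A7, an amino acid exporter, went from 7.08, 7.01 and 7.08 to 8.51, 8.37 and 8.76, a rise of 1.49 (SE 0.20). The higher count was 5 without either wild type array and 4 without both. Of 25 genes of cholesterol synthesis and export 4 rose and 3 fell, shares of 16% and 12% near or below the background. ABCA1, which exports cholesterol, was the one large change, from 8.25, 8.42 and 8.07 to 10.34, 10.15 and 10.46, a 4.20-fold rise (SE 0.19 on the log2 scale, limma adjusted p = 5.52e-05). Of 31 glutathione, thioredoxin and antioxidant genes 16 fell and 3 rose, with 10 and 1 without both wild type arrays and 5 higher without both arrays of scrambled replicate 2. SOD1, the cytosolic superoxide dismutase, fell by 1.46 (SE 0.24) from 10.66, 10.26 and 10.79 to 9.48, 9.35 and 8.50. Among 23 iron and heme genes 6 rose and 6 fell (26.1% each, beside 15.2% and 20.9% of all genes). The ferritin light chain FTL rose by 0.73 (SE 0.15), and the heme synthesis enzymes CPOX and UROD fell by 0.65 and 0.68. The higher count of this list was 3 without the untreated or both wild type arrays and the lower count 3 without the wild type ATRA array.

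Among receptors of innate recognition most calls were rises. Of 37 Toll-like, NOD-like and lectin receptors 19 rose and 2 fell, with a median of 0.58. TLR1, which senses lipopeptides together with TLR2, lay at 6.10, 5.73 and 5.83 and then at 8.76, 8.73 and 8.52, a 6.90-fold rise with the smallest p of the list (SE 0.16, limma adjusted p = 2.38e-05). LY96, the MD-2 partner of TLR4, went from 5.56, 4.63 and 4.77 to 8.17, 7.73 and 8.58, a rise of 3.17 (SE 0.31). CLEC7A, the beta-glucan receptor dectin-1, rose by 2.72 (SE 0.27), and NLRC4, an inflammasome receptor, by 2.57 (SE 0.22). TLR4 itself lay at 8.23, 9.48 and 9.0 and then at 9.59, 9.45 and 9.42, a difference of 0.58 (SE 0.24) that was not called. In these genes, other than TLR4, the groups did not overlap.

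Paired receptors hold inhibitory and activating members side by side and set the threshold of myeloid activation. Of 33 measured genes 27 rose (81.8%, beside 15.2% of all genes) and 0 fell, with a median of 0.89. In 23 of the 33 all ATRA arrays lay above all untreated ones, beside 25.2% of all genes. FCER1G, the signalling chain of Fc and other activating receptors, lay at 9.99, 10.07 and 9.79 and then at 12.29, 12.29 and 12.23, a rise of 2.32 (SE 0.24). SIGLEC7, an inhibitory receptor for sialic acids, went from 7.88, 7.83 and 7.90 to 9.14, 9.09 and 9.24, a rise of 1.29 (SE 0.11). MILR1 and SIRPB2 rose by 2.05 (SE 0.26) and 1.77 (SE 0.23). Members with shared sequence, such as those of the LILR and SIGLEC families, are uncertain. The median was 1.15 in scrambled replicate 1, 0.82 in wild type cells and 0.45 in scrambled replicate 2.

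Among receptors for cytokines, too, most calls were rises. In their list 21 of 41 genes rose, 1 fell and the median was 0.43. IL10RA, the ligand-binding chain for interleukin 10, went from 7.41, 7.99 and 7.48 to 10.12, 9.65 and 10.68, a rise of 2.52 (SE 0.28). IL6ST, the shared chain gp130, rose by 2.04 (SE 0.21), TGFBR2 by 1.21 (SE 0.13) and CSF2RB, the shared chain for GM-CSF, by 1.21 (SE 0.16). JAK2, a kinase that serves several of these receptors, lay at 8.07, 9.04 and 8.21 and then at 10.49, 10.57 and 9.71, a rise of 1.82 (SE 0.26). Of the 22 JAK, STAT and SOCS genes 6 rose and 2 fell (27.3% and 9.09%, beside 15.2% and 20.9% of all genes). Of 25 MAP kinase phosphatase and feedback genes 6 rose, 3 fell and 16 were not called, with a median of 0.12. Those shares were 24% higher and 12% lower, beside 15.2% and 20.9% of all genes. Its risers included the feedback inhibitors SPRY2 at 1.55 (SE 0.26) and DUSP6 at 1.31 (SE 0.22). Of 35 adhesion and homing molecules 13 rose and 4 fell (37.1% and 11.4%, beside 15.2% and 20.9% of all genes). The hyaluronan receptor CD44 rose by 1.22 (SE 0.18) and CD58 by 0.96 (SE 0.16).

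Among granulocyte markers, FPR1, the formyl peptide receptor, lay at 7.41, 7.42 and 7.42 and then at 9.28, 8.53 and 8.97, a rise of 1.51 (SE 0.16, limma adjusted p = 8.75e-05). CYBB, the core of the NADPH oxidase, lay at 12.08, 13.27 and 12.50 and then at 13.66, 13.69 and 13.74, a rise of 1.08 (SE 0.22). CSF3R and MMP9 were not called (0.92 and -0.30, limma adjusted p of 0.084 and 0.769). CSF3R changed by -0.44 in scrambled replicate 2 and rose in the other lines. MMP9 changed by -1.74 and -1.36 in scrambled replicates 1 and 2 and by 2.21 in wild type cells. Among monocyte markers CSF1R, the receptor for M-CSF, went from 7.90, 8.23 and 7.73 to 9.15, 8.87 and 9.08, a rise of 1.08 (SE 0.18). CD14 rose by 0.71, a call lost without the ATRA array of scrambled replicate 2 (adjusted p = 0.0578), without both arrays of that line (0.0719) and without both wild type arrays (0.079). Calls were thus made among the markers of both branches, and fewer cells of a type cannot be told apart from less RNA per cell in these bulk samples.

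Lysosomal genes rose without exception among their calls. In this list 21 of 42 genes rose, 0 fell and the median was 0.38. PSAP, the precursor of sphingolipid activators, lay at 11.42, 11.55 and 11.40 and then at 12.55, 12.46 and 12.50, a rise of 1.05 (SE 0.10). The proton pump subunit ATP6V1B2 rose by 1.23 (SE 0.14), and CTSS, a protease of antigen processing, by 1.73 (SE 0.24). Secretory vesicle fusion had 7 of 33 genes higher and 2 lower (21.2% and 6.06%, beside 15.2% and 20.9% of all genes). The higher count was 3 without both wild type arrays and 12 without both arrays of scrambled replicate 2. STX11, a syntaxin of cytotoxic and phagocytic cells, rose by 1.50 (SE 0.22).

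Genes of eicosanoid synthesis and of the actin cytoskeleton had more rises than falls. Of 26 leukotriene and prostaglandin genes 12 rose and 2 fell (46.2% and 7.69%, beside 15.2% and 20.9% of all genes). The higher count was 7 without the untreated wild type array and 4 without both wild type arrays. PTGES, the inducible prostaglandin E synthase, went from 8.09, 8.91 and 7.83 to 11.14, 10.85 and 11.02, a rise of 2.73 (SE 0.31). LPCAT2 and the leukotriene receptor CYSLTR1 rose by 0.88 (SE 0.13) and 0.82 (SE 0.13). Of 38 actin genes 12 rose and 3 fell (31.6% and 7.89%, beside 15.2% and 20.9% of all genes). The actin count was 7 without the untreated wild type array or either array of scrambled replicate 1 and 4 without both wild type arrays. Of 17 nuclear lamina and envelope genes 4 fell, 2 rose and 11 were not called, with a median of -0.05. These shares (23.5% lower and 11.8% higher) were near those of all genes (20.9% and 15.2%). LMNB1, a lamin whose loss accompanies nuclear lobulation, lay at 9.67, 9.53 and 9.70 and then at 8.65, 8.44 and 8.34, a fall of 1.16 (SE 0.13).

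Genes of antiviral families were among the rises in control cells to which no interferon was added, as far as the labels state. Of 22 genes of the apolipoprotein L, MX, OAS, IFIT and IFITM families 14 rose and 0 fell, with a median of 0.86, and 11 rose by at least 1. IFIT1, which binds foreign RNA ends, lay at 6.63, 6.59 and 6.48 and then at 11.04, 9.85 and 9.39, a rise of 3.53 (SE 0.73, limma adjusted p = 0.00327). OAS3, which makes the activator of an antiviral nuclease, lay at 7.33, 9.16 and 7.61 and then at 12.03, 11.40 and 10.65, a rise of 3.33 (SE 0.60). In both, as in OAS1 (12.24, 11.50 and 11.04) and IFIT5 (10.60, 9.83 and 9.56), scrambled replicate 1 was the highest of the ATRA arrays and wild type the lowest. CXCL10, a chemokine of the same response, lay at 9.11, 6.53 and 8.56 and then at 11.76, 11.19 and 12.14. Its rise of 3.63 was 2.87 without the untreated array of scrambled replicate 2, and its call was lost without both wild type arrays (3.66, adjusted p = 0.0522). IFIT and OAS members share sequence, so single values are uncertain.

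In antigen presentation the calls were mostly among peptide loading genes. Of 14 genes of the immunoproteasome and MHC class I loading 7 rose and 0 fell, with a median of 0.74. B2M, the light chain of class I molecules, lay at 11.71, 12.25 and 11.85 and then at 13.00, 13.01 and 12.80, a rise of 1.0 (SE 0.16). The peptide transporter TAP2 rose by 1.24 (SE 0.21) and TAPBPL by 1.15 (SE 0.22). The immunoproteasome subunits PSMB8 and PSMB10, named after their values were seen, differed by 0.36 (adjusted p = 0.189) and 0.34 (adjusted p = 0.284) in limma's test and were not called, while PSMB9 rose by 1.28. The count was 11 without the untreated array of scrambled replicate 2 and 4 without both wild type arrays. Of 29 constitutive proteasome genes 19 fell and 0 rose, with a median of -0.48, and 8 fell without both wild type arrays. PSMD6 fell by 0.83 (SE 0.13) from 9.06, 9.12 and 9.33 to 8.40, 8.52 and 8.09. Of 9 MHC class II genes 3 rose (33.3%, beside 15.2% of all genes), by at most 0.73, and 0 fell. Only 1 rose without both wild type arrays, and 1 without both arrays of scrambled replicate 2. HLA-DQB1 (0.46) was the least stable, its call ending without the wild type ATRA array (adjusted p = 0.0813), the untreated wild type array (0.0699) or the ATRA array of scrambled replicate 2 (0.0553).

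Survival genes moved in both directions. BCL2, an inhibitor of apoptosis, lay at 9.03, 8.27 and 9.20 and then at 7.71, 7.42 and 7.63, a fall of 1.24 (SE 0.20, limma adjusted p = 0.000792). MCL1, another inhibitor of apoptosis, lay at 9.80, 10.44 and 10.08 and then at 10.78, 10.81 and 11.21, a rise of 0.83 (SE 0.16). BCL2L10 fell by 1.21 (SE 0.25). Of the 20 genes of this family 6 rose and 2 fell (30% and 10%, beside 15.2% and 20.9% of all genes). The rising count was 3 without the wild type ATRA array and 1 without both wild type arrays.

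Genes of eosinophil and basophil granules were unlike one another. CLC, the Charcot-Leyden crystal galectin, lay at 10.91, 8.49 and 9.76 and then at 12.79, 11.13 and 13.11. Its rise of 2.63 was 3.22 without the untreated array of scrambled replicate 1, 2.01 without that of scrambled replicate 2 and 3.23 without the ATRA array of scrambled replicate 2, and its call was lost without both wild type arrays (adjusted p = 0.0926). MS4A3 fell by 1.48 (SE 0.35), a call that ended without both wild type arrays (-0.88, adjusted p = 0.0722). RNASE2 and HDC were called lower at -1.04 and -1.70. Both calls ended without the untreated array of scrambled replicate 1 (adjusted p of 0.0744 and 0.13) and without the untreated wild type array (0.0979 and 0.0598), that of RNASE2 also without the wild type ATRA array (0.0744) or both wild type arrays (0.212). That of HDC also ended without the ATRA array of scrambled replicate 1 (0.102) or 2 (0.14) and without both arrays of scrambled replicate 2 (0.106). Without the wild type ATRA array HDC stood at -2.32. Of the 12 genes of this list 1 was higher and 3 lower (8.33% and 25%, beside 15.2% and 20.9% of all genes). The lower count was 1 without either of these untreated arrays.

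S100 genes moved in both directions. S100A10, the annexin partner, lay at 11.86, 11.70 and 11.55 and then at 9.93, 8.97 and 10.31 and fell by 1.97 (SE 0.29). S100A8 and S100A9, the subunits of calprotectin, rose by 2.61 (SE 0.60) and 1.82 (SE 0.32), both named after their values were seen, and S100A11 rose by 0.49 (SE 0.08). Of the 19 genes 6 rose, 4 of them by at least 1, and 1 fell (31.6% higher and 5.26% lower, beside 15.2% and 20.9% of all genes). The G protein regulator RGS1 went from 5.60, 6.65 and 5.76 to 8.19, 7.93 and 8.13, a rise of 2.08 (SE 0.21), and RGS2 rose by 1.84 (SE 0.30).

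Large families with mostly dim members are given here beside shares of 15.2% higher and 20.9% lower over all genes. Of 115 keratin and keratin-associated genes 33 were called higher (28.7%) and 1 lower (0.87%), with a median of 0.17. The higher count was 18 without the untreated wild type array or the wild type ATRA array, 20 without the untreated and 21 without the ATRA array of scrambled replicate 2, and 8 without both wild type arrays. Of 42 protocadherins 5 were higher (11.9%, below the share of all genes) and 0 lower, with a median of 0.16. Their higher count was 3 without the untreated wild type array, 2 without both arrays of scrambled replicate 2 and 0 without both wild type arrays. Of 480 genes of the ZNF series 26 were higher (5.42%) and 83 lower (17.3%), both below the shares of all genes, with a median of -0.05. Leaving out 1 array left between 10 and 16 higher for the arrays that moved this count by over 1.5 times (both wild type arrays, untreated scrambled replicate 1 and ATRA scrambled replicate 2), and 52 lower without the untreated wild type array. The median level of the olfactory receptor genes was 6.14, 6.11 and 6.14 in the untreated arrays and 6.20, 6.29 and 6.23 in the ATRA arrays, so dim genes stood slightly higher after ATRA, and the part of this in small rises was not tested.

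The 3 control lines gave the same direction for most calls and different amounts. Of the 6644 called genes 6551 had the same sign in all 3 lines, beside 11512 of all 18404 genes. The calls were made on these same arrays, so the shared sign is no separate check of them. A rise of at least 1 was seen in 630 genes in scrambled replicate 1, 234 in scrambled replicate 2 and 618 in wild type cells, and a fall of at least 1 in 490, 307 and 1141. In all 3 lines 160 genes rose and 107 fell by this much, and 40 rose and 0 fell by at least 2. Across genes, which are not independent replicates, the changes correlated at 0.69 between the scrambled replicates, 0.77 between scrambled replicate 1 and wild type, and 0.73 between scrambled replicate 2 and wild type. Here the untreated and ATRA arrays of a line were matched by genotype and replicate number, which is a description only.

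The wild type and scrambled responses could be compared in a model of the lines, with 4 residual degrees of freedom and the single wild type arrays assumed to vary like the others. limma called 0 of 18404 genes different (0%), with 1534 at an unadjusted p under 0.05 and a smallest adjusted p of 0.151. Primary granule genes were among those with unlike values. PRTN3, a serine protease of primary granules, lay at 12.93, 13.49 and 13.47 and then at 13.26, 13.30 and 11.55, and its wild type response differed from the scrambled one by -1.99 (adjusted p = 0.308). AZU1 lay at 10.39, 10.74 and 10.82 and then at 10.48, 10.82 and 9.30, a difference between responses of -1.61 (adjusted p = 0.345). MPO, the myeloperoxidase, lay at 13.70, 13.51 and 13.77 and then at 13.50, 13.44 and 12.67, a difference of -0.96 (adjusted p = 0.333). In all 3 genes the wild type ATRA array was the lowest of the 6. CTSG already differed between untreated lines, at 8.03, 8.91 and 9.98, and lay at 8.07, 8.05 and 7.56 after ATRA, while ELANE stayed between 9.01 and 9.20 in all 6 arrays.

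None of these granule genes was called between the states. MPO had a log2 difference of -0.46 (SE 0.18, limma adjusted p = 0.0727). It passed the threshold at -0.60 without the ATRA array of scrambled replicate 1 (adjusted p = 0.0342). The same held at -0.65 without both arrays of scrambled replicate 2 (adjusted p = 0.0443). ELANE differed by 0.05 (adjusted p = 0.717).

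The untreated array of scrambled replicate 2 stood apart from the other untreated arrays. On principal component 1 of the 6 control arrays, with 70.7% of the variance, it scored -20.2, beside -38.6 and -39.9 for the other untreated arrays and 29.5 to 39.0 for the ATRA arrays. Its position was then read gene by gene, an analysis added after the data had been seen. In 111 genes that rose by at least 2 in both other lines, its level lay a median of 30.6% of the way from the other untreated to the other ATRA arrays. The same measure was -3.08% for the untreated array of scrambled replicate 1 (44 genes) and -6.49% for the wild type one (50 genes). These are not like for like, since their untreated reference includes the scrambled replicate 2 array, which moves them below 0, and their genes had to rise by at least 2 in that line. Over 320 genes that fell by at least 1 in both other lines it was 30.7%.

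The distance was unequal between genes. In 36 of the 111 rising genes the array lay past 50% of the way, and in 26 under 10%. CYP4F3, which degrades leukotriene B4, lay at 7.24, 10.15 and 7.07 untreated and at 9.77, 10.01 and 9.85 after ATRA, so that this array stood at 113%. CD52 (96.6%), the peptidyl arginine deiminase PADI2 (91.8%), ALOX5AP (89.4%), the retinoid reductase DHRS3 (88.3%), TGM2 (84.6%) and the integrin ITGAM (77.9%) were also near the ATRA level. AQP9 (4.55%), IL1B (2.40%), SPP1 (2.18%), IFIT1 (0.994%), THBS1 (0.946%), the complement receptor C5AR1 (0.800%), IGSF6 (-2.56%), TLR1 (-8.78%) and LY96 (-16.7%) were at the level of the other untreated arrays. Among falling genes E2F5 (60.1%), BCL2 (58.9%) and MYC (40.8%) were part of the way, while ASS1 (2.58%), S100A10 (0.136%) and MCM6 (-2.37%) were not. These genes were picked after their values were seen. What sets this array apart was not tested.

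**Figure D4:**
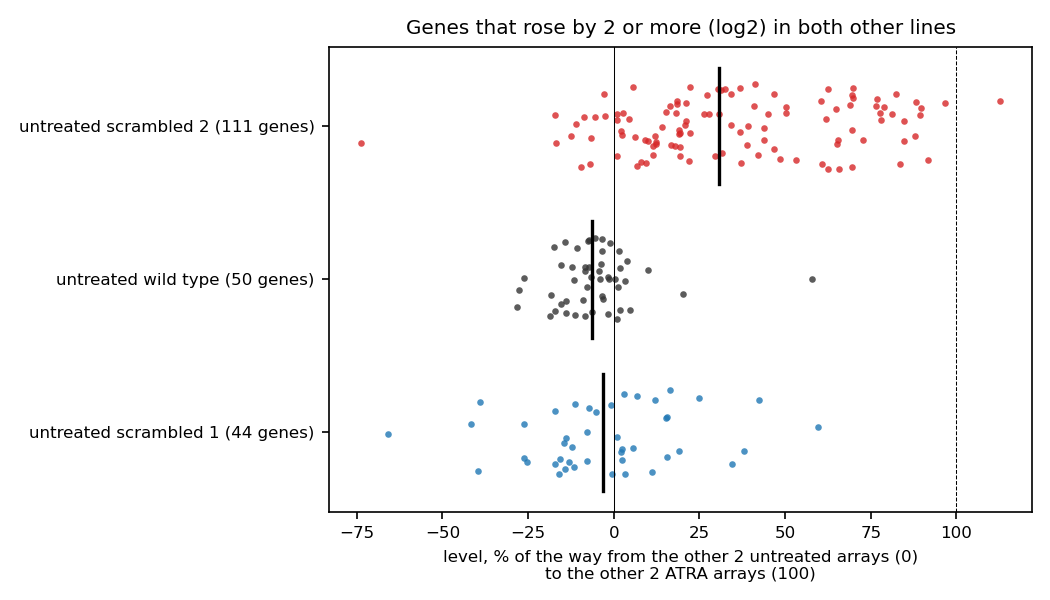
Position of each untreated control array, in percent of the way from the other 2 untreated arrays to the other 2 ATRA arrays, for genes that rose by at least 2 in both other lines (1 point a gene, black bar the median). The points of scrambled replicate 2 spread from below 0 to 113% with a median of 30.6%, while the medians of scrambled replicate 1 and wild type cells are -3.08% and -6.49%, against a reference that includes the scrambled replicate 2 array.

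The responses of control and HOTAIRM1 knockdown cells were compared by limma's interaction contrast, which called 0 of 18404 genes (0%), with 2815 at an unadjusted p under 0.05. The response of AQP9 was 4.91 in control and 4.18 in knockdown cells, that of IGSF6 4.33 and 3.48, and that of RARB 2.46 and 2.72. ABCA1 rose by 2.07 and 2.03 and LRRK2 by 4.08 and 3.93. Among falling genes MYC differed by -1.29 and -1.25, E2F5 by -2.24 and -2.39, and MCM6 by -1.51 and -0.79 (adjusted p of the difference 0.271). The median of the MCM and licensing genes was -1.01 in control and -0.49 in knockdown cells, that of chaperones -0.77 and -0.74, and that of paired receptors 0.89 and 0.97. The missing calls do not show that the responses were equal.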

How the data were processed

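RNA of 12 samples was read on Affymetrix ST arrays. The deposited log2 values were used as given, and RMA and limma are named without versions, per the submitters' processing notes. Control values spanned 2.67 to 14.54 and their medians 7.73 to 7.81. Precision is limited by how few arrays there are.

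Of 32321 probe sets, 19158 had 1 gene, 1388 several and 11775 none listed in the platform annotation. For 637 genes with over 1 probe set the one with the highest mean was kept, which gave 18404 genes. The build behind the probe sets is not given in the sources used here.

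limma 3.58.1 (R 4.3.3) fitted 4 arm means of 3 arrays to all 12 arrays (8 residual degrees of freedom). Two-sided p values got a Benjamini-Hochberg adjustment across all genes (threshold 0.05). With 3 arrays a side, exact permutation reaches 0.1 at best. The fit was tested on simulated data.

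Lists (47 of genes, 22 symbol families) and members were chosen with earlier results of these data known. They are described by counts and medians, with no test. Named genes were the 20 largest rises and falls among calls with separated groups, up to 4 called members with the smallest p of each list (2 of a family) and 12 fixed genes, RARA, RARB, RXRA, MYC, CEBPA, CEBPB, CEBPE, SPI1, MPO, ELANE, CD38 and PML. Others are marker genes or were named after their values were seen, as were MCM6, TLR4, DDX60, ORC2 and some immunoproteasome genes. Same-line deviations of untreated and ATRA arrays correlated at -0.11, 0.19 and -0.17, so replicate numbers were not used as pairs. Promoters came from RefSeq (GRCh38.p14), with 20100 entries for 14230 of the genes tested. A gene family is not reported here.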

Additional observations from a re-analysis of the deposited data

How the results depend on the processing

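No gene called both in the reported fit and under an alternative changed its sign. Against 2800 genes higher and 3844 lower, a fit of the control arrays only called 1723 higher and 3102 lower, array weights 4450 and 4628, and an adjusted p under 0.01 left 1157 and 2653. Leaving out 1 array at a time gave 1549 to 2570 higher and 2977 to 3748 lower, the lowest without the untreated wild type array. Without both wild type arrays 983 were higher and 2477 lower. Without both arrays of scrambled replicate 2 the counts were 2138 and 3518, with quantile normalization 2537 and 3079, with the genes of lowest level left out 2139 and 3817, and with array medians centred, an alternative chosen after seeing the data, 2277 and 4108. A fit with the replicate number as a block called 2300 higher and 3761 lower and shared 5735 calls. The numbers do not pair the samples, so it is given here once. The unfolded protein response list, with 1 gene higher and 2 lower, had 0 and 0 in the control arrays only, at an adjusted p under 0.01 and without both wild type arrays, 0 and 1 with trend and robust fitting, 2 and 8 with array weights, 3 and 0 with quantile normalization, 1 and 8 without both arrays of scrambled replicate 2, and 0 to 2 and 0 to 8 on leaving out 1 array. Neither comparison of responses called a gene under the alternatives run for it. Of the 257 named genes 227 kept their side of the threshold without both wild type arrays and 240 to 255 under the others, the 240 being those left to test after the filter on low levels. The cause of these movements was not tested, apart from the fewer arrays or genes used.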
